A study of Mus musculus with 2 samples.

Results

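The genes described here are the enzymes that build sterols and fatty acids, together with the SREBP regulators that control them. They were chosen by name, as a list of 30 genes. Of the 30, 26 had a probe set that the platform annotation paired with a single gene symbol, and so were among the 17097 genes with a value on the arrays. Acat2, Pmvk, Srebf1 and Scd2 had none under that rule and were not analysed here. The T cells were naive Foxp3-negative CD4+ cells (CD62Lhigh, CD44low) of 6-week-old C57/Bl6 Foxp3-eGFP reporter mice, in which Foxp3-expressing T cells are green. Stimulation lasted 48 hours and combined soluble anti-CD3, an antibody that engages the T cell receptor, with CD3-depleted splenocytes as antigen-presenting cells (APC). In one culture the APC carried an OX40L transgene (OX40L-Tg APC), and in the other they were wild type B6 cells (Wt APC). Mitomycin C (50 ug/ml), which blocks cell division, was applied to both kinds of APC beforehand, and living CD4+ T cells were sorted from both cultures before RNA was taken. The comparison asks which transcripts differ in the T cells when the APC carry the OX40L transgene. The promoter of the transgene and the number of mice behind each sample are not given in the sources used here.

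Cells make cholesterol from acetyl-CoA through mevalonate, isoprenoid units, squalene and lanosterol. The transcription factors SREBP-1 and SREBP-2 are held in the endoplasmic reticulum by Scap and the Insig proteins while sterols are plentiful, and are carried to the Golgi and cleaved when sterols run short. SREBP-2 mainly drives the sterol enzymes and SREBP-1 the enzymes of fatty acid synthesis. T cells are known to raise both pathways after receptor stimulation, since dividing cells need new membrane.

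There was 1 array for each kind of APC, so no value has a replicate, nothing can be tested, and the number of arrays limits the precision. Values are RMA intensities in arbitrary units, which give a probe set's brightness and cannot rank the level of one gene against another. Every difference is a log2 value, with the Wt APC array subtracted from the OX40L-Tg APC array. A gene took its brightest probe set, and counted as above the floor when that probe set reached the median of all probe sets on at least 1 array, which 10541 genes did. A background level was set at the 95th percentile of 45 genes listed as typical of other organs, which was 41.7 units on the OX40L-Tg APC array and 34.6 units on the Wt APC array. Since the level comes from these 45 genes, some of them exceed it by construction, and Tg and Krt10 did so on both arrays. Tg read 4490.6 units with OX40L-Tg APC and 3302.1 units with Wt APC, so not every gene of the list was at background here. In place of replicate error, the only yardstick was the disagreement between probe sets of the same gene. Over 2899 genes with at least 2 probe sets above background, the median gap between their differences was 0.12 and the 90th percentile of that gap was 0.32. That gap comes from the same 2 RNA samples and holds no variation between cultures or mice, so passing it does not show a difference between the conditions.

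In the labels the RNA extraction is described for adipose tissue, which makes fatty acids itself, whereas the cell type is given as CD4 T cells. All 6 measured adipocyte markers, among them Adipoq, Fabp4 and Lep, were below background on both arrays, at 6.55 to 18.3 units. All 10 measured T cell markers were above background, and their summed intensity was 19377 units with OX40L-Tg APC and 22572 units with Wt APC. Of these markers, 9 read lower with OX40L-Tg APC, with a median difference of -0.27, and Cd3e read 1.59-fold lower. Genes of B cells and of antigen presentation read higher with OX40L-Tg APC. All 7 B cell markers above the floor were higher, with a median of 0.44 and summed intensities over the 8 measured markers of 1262 units with OX40L-Tg APC and 883.0 units with Wt APC. All 6 MHC class II genes above the floor were higher too, with a median of 0.46 and sums over the 7 measured genes of 3605 units with OX40L-Tg APC and 2699.6 units with Wt APC. Erythroid transcripts read lower through 1 gene. Hba-a1, a globin of red cells, read 207.3 units with OX40L-Tg APC and 1160.8 units with Wt APC, a difference of -2.49, and the other 4 measured erythroid markers were below background on both arrays. Among the B cell markers, Ebf1, Pax5 and Vpreb3 were below background on both arrays. Of 11 dendritic cell and macrophage markers, 10 were below background on both. The class II regulator Ciita was below background on both arrays as well. Of 5 CD8 T cell and NK cell markers, 4 were below background on both arrays. Cd8b1 was above it, at 239.3 units with OX40L-Tg APC and 191.4 units with Wt APC, a difference of 0.32. The part of these shifts in the results below was not tested, and in such bulk samples fewer cells of a type and less RNA per cell cannot be told apart.

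Most sterol enzymes read slightly lower on the array of sorted cells from the culture with OX40L-Tg APC, and the fatty acid enzymes were mixed. Of the 26 measured genes, all above the floor, 19 read lower and 7 higher with OX40L-Tg APC, and of all genes above the floor 46.0% read lower and 54.0% higher. Their median difference was -0.15, beside 0.02 over all genes. The shift was small in every gene. None of the 26 reached 1.5-fold, which 7.21% of all genes did (3.36% lower and 3.85% higher), and none reached 2-fold, which 2.72% did (1.17% lower and 1.56% higher). The differences lay between -0.55 for Dhcr7 and 0.16 for Elovl6. By role, 14 of 16 sterol enzymes read lower, 2 of 5 regulators and carriers, and 3 of 5 fatty acid enzymes. The lower genes include Mvd, which was almost level, and Hmgcs1, whose probe set was below background. Earlier results of these data already gave the lower median of sterol synthesis genes, so that it is no independent finding here.

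**Figure D1:**
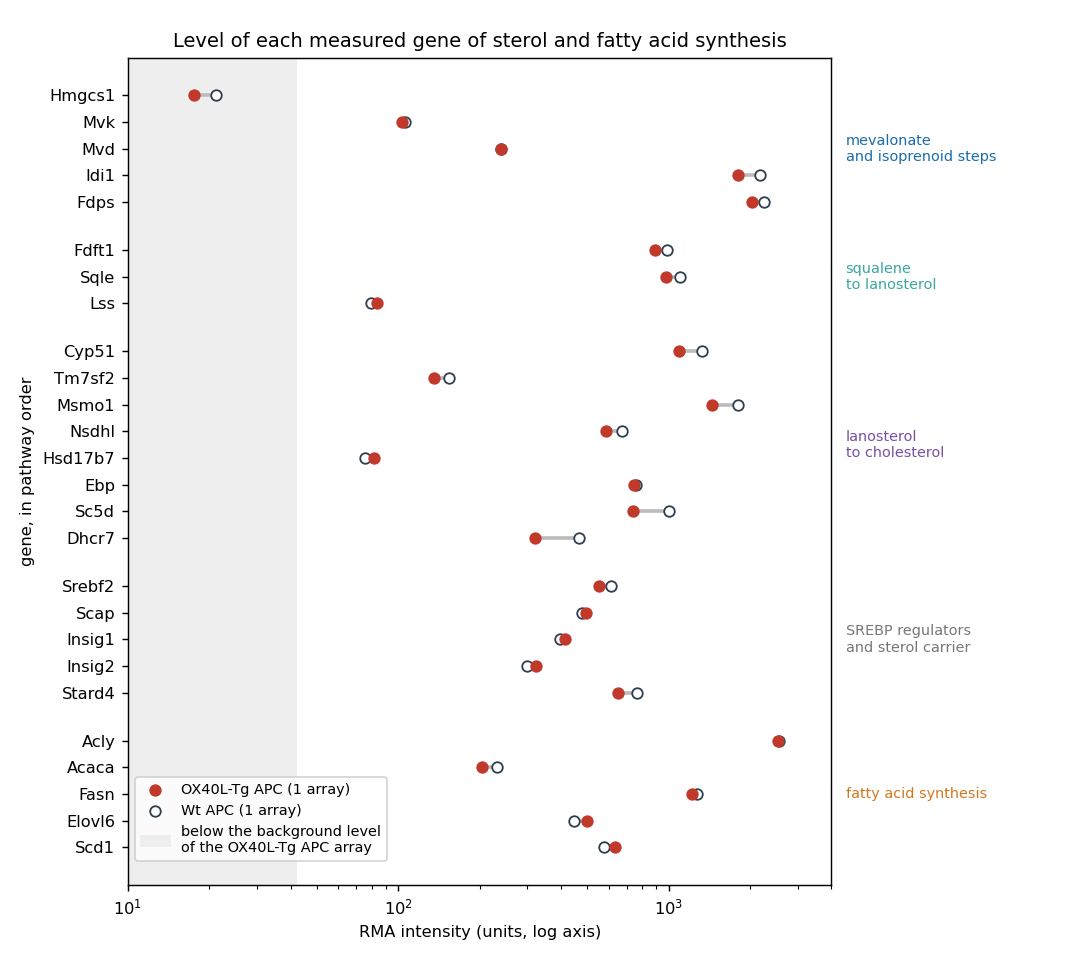
RMA intensity (log axis) of the 26 measured genes in pathway order, with OX40L-Tg APC as filled red points and Wt APC as open points, 1 array each and no error bars, and with the grey area below the background level of the OX40L-Tg APC array. The red point lies left of the open one in 19 genes, and the widest gap is that of Dhcr7, at 319.9 units with OX40L-Tg APC and 467 units with Wt APC.

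SREBP-2 acts at short promoter sites together with NF-Y, which binds CCAAT boxes, and Sp1, which binds GC boxes. RefSeq promoter windows (GRCm38.p6, 250 bases before to 50 after an annotated start) were at hand for 24 of the 30 genes. The letters CCAAT were searched on both strands, and stood in 20 of the 24 genes (83.3%), beside 41.1% of 27025 genes with a window and 43.0% of those above the floor on the arrays. By role they stood in 14 of 15 sterol enzymes, 4 of 5 regulators and 2 of 4 fatty acid enzymes. The GC box letters GGGCGG stood in 20 of 24 (83.3%), beside 38.2% of all genes and 68.0% of those above the floor. The 24 include Acat2, Pmvk and Srebf1, which had no value on the arrays. The shares above the floor therefore cover an unlike set of genes. The SRE letters TCACNCCAC stood in Hmgcs1 alone among the 24 (4.17%), beside 1.44% of all genes. Only these exact letters were searched, so a site with other letters or outside the window was not counted. None of the 3 motifs contains another, a gene counted when any of its listed starts held the letters, and a match in letters is not a bound site.

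The 150 bases just before the start are shown for the 5 genes with a window that had the most negative differences above background, with CCAAT boxes of either strand in capitals (ATTGG is CCAAT on the other strand). They were chosen after their values were seen. Dhcr7 has 3 listed starts, and the one with the most CCAAT boxes is shown.
Dhcr7 (chr7:143830064-143830213, plus strand): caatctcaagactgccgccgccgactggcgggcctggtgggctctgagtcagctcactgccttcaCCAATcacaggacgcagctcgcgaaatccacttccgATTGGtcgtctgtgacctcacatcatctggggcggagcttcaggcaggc
Sc5d (chr9:42264301-42264450, minus strand): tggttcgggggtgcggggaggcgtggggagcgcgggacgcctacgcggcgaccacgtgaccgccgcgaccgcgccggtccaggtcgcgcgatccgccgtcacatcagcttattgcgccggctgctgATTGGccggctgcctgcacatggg
Msmo1 (chr8:64733579-64733728, minus strand): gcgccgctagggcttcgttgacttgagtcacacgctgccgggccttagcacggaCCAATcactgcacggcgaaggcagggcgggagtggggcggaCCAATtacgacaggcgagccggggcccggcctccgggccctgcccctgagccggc
Cyp51 (chr5:4104698-4104847, minus strand): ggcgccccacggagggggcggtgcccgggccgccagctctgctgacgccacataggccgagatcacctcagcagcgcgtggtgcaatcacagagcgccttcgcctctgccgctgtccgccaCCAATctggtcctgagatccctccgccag
Idi1 (chr13:8885456-8885605, plus strand): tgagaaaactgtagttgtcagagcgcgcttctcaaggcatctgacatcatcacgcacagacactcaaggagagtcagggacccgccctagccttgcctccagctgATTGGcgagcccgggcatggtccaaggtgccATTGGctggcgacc
The next sequence is the Hmgcs1 promoter over the same distance, shown because it holds the SRE, here in capitals. The last is that of Elovl6, the gene with the most positive difference, which holds none of the 3 motifs in its window. Acaca holds none either, yet read lower. Of the other genes that read higher and have a window, Lss, Hsd17b7, Insig1 and Insig2 hold CCAAT letters and Scap does not. Whether the motifs go with the direction was not tested.
Hmgcs1 (chr13:119690201-119690350, plus strand): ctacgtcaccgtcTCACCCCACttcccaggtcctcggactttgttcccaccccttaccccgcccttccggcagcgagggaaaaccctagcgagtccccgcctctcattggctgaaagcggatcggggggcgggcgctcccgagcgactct
Elovl6 (chr3:129532236-129532385, plus strand): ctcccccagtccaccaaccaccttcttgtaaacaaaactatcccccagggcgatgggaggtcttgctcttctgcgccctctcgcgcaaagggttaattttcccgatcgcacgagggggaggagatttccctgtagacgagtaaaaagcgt

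**Figure D2:**
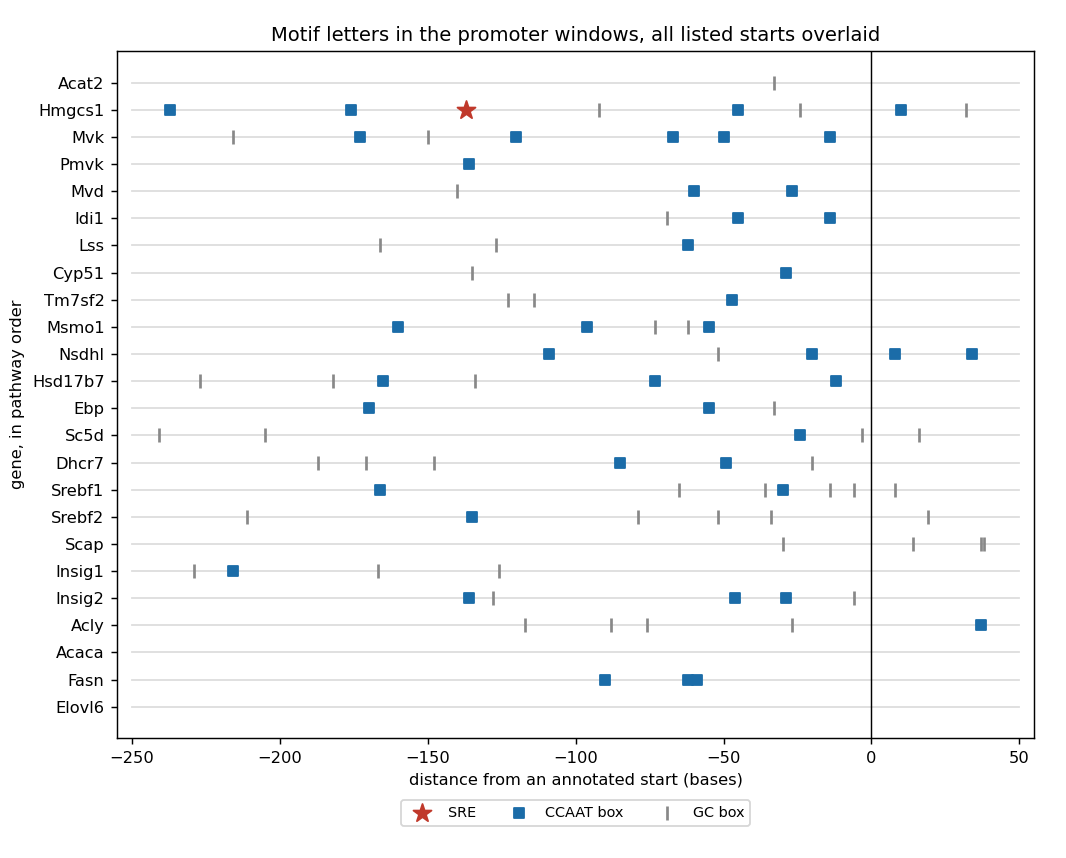
Distance from an annotated start (bases, 0 at the start) of SRE letters (star), CCAAT boxes (squares) and GC boxes (ticks) in the promoter windows of the 24 genes with a window, in pathway order and with all listed starts overlaid. The star stands in Hmgcs1 only, 137 bases before the start, and the rows of Acaca and Elovl6 hold no mark.

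The early steps from acetyl-CoA to isoprenoid units read lower or almost level. Idi1, which isomerises isopentenyl pyrophosphate, read 1811 units with OX40L-Tg APC and 2171 units with Wt APC, 1.20-fold lower, a difference of -0.26. Its other probe set read 1119 units with OX40L-Tg APC and 1272 units with Wt APC, a difference of -0.19. The lower value with OX40L-Tg APC therefore appeared on both probe sets of Idi1, with a gap between them smaller than the usual one. Fdps, which joins these units to farnesyl pyrophosphate, read 2025 units with OX40L-Tg APC and 2257 units with Wt APC, a difference of -0.16. Mvk, the kinase of mevalonate, read 103 units with OX40L-Tg APC and 106 units with Wt APC, and its dimmer probe set differed by -0.09. Mvd, which decarboxylates mevalonate pyrophosphate, read 239 units with OX40L-Tg APC and 239.6 units with Wt APC. That probe set carries the mark of sets shared between transcripts. The unmarked one differed by -0.15, so the near-zero value of Mvd rests on the choice of probe set. Hmgcs1, the cytosolic HMG-CoA synthase, read 17.5 units with OX40L-Tg APC and 21.1 units with Wt APC. Its single-symbol probe set was below background on both arrays, so that its sign carries no weight. The other 25 measured genes were above background on both.

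The steps from farnesyl pyrophosphate to lanosterol showed a small and even difference in 2 of 3 genes. Fdft1, squalene synthase, read 889 units with OX40L-Tg APC and 982 units with Wt APC, a difference of -0.14. Sqle, the squalene epoxidase, read 979.7 units with OX40L-Tg APC and 1097 units with Wt APC, a difference of -0.16. Both lay just beyond the median gap between probe sets and well short of its 90th percentile. Lss, which folds the epoxide into lanosterol, read 83.3 units with OX40L-Tg APC and 79.1 units with Wt APC, a difference of 0.07. Each of these 3 genes has 1 probe set, so no other probe set bears on these values.

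The late steps from lanosterol to cholesterol held the most negative differences of the whole set. Of 8 enzymes, 7 read lower with OX40L-Tg APC, with a median of -0.24. Dhcr7, the reductase that turns 7-dehydrocholesterol into cholesterol, read 319.9 units with OX40L-Tg APC and 467 units with Wt APC, 1.46-fold lower, a difference of -0.55. That is just short of 1.5-fold, and 3.75% of all genes above the floor had a more negative difference. Dhcr7 has 1 probe set. Sc5d, the desaturase one step before it, read 736 units with OX40L-Tg APC and 1000.1 units with Wt APC, 1.36-fold lower, a difference of -0.44. Its second probe set read 64.1 units with OX40L-Tg APC and 88.6 units with Wt APC, which is -0.47. The third was below background on both arrays. Dhcr7 and Sc5d, neighbours in the pathway, exceeded the 90th percentile of the gap between probe sets, which is technical scatter only. The other measured genes above background did not. Of all genes above the floor, 5.67% had a more negative difference than Sc5d. The 5th percentile over all these genes was -0.47 and the 95th was 0.50, so genes at large pass that gap in both directions. The exact share beyond it was not counted, and passing it does not set the 2 genes apart from genes at large.

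Msmo1, which starts the removal of the C-4 methyl groups, read 1447 units with OX40L-Tg APC and 1799 units with Wt APC, a difference of -0.31. Its other probe set was below background and of the opposite sign. Cyp51, the demethylase that acts on lanosterol, read 1095 units with OX40L-Tg APC and 1330.0 units with Wt APC, a difference of -0.28. Its second probe set, at 422 units with OX40L-Tg APC and 515 units with Wt APC, gave -0.29, so that the 2 probe sets above background nearly coincide. Nsdhl, which works with Msmo1 on the same methyl groups, read 586 units with OX40L-Tg APC and 675 units with Wt APC, a difference of -0.20. Tm7sf2, a sterol C14 reductase, read 135 units with OX40L-Tg APC and 153 units with Wt APC, a difference of -0.18. Ebp, the sterol isomerase, was almost level at 744 units with OX40L-Tg APC and 757 units with Wt APC. Hsd17b7, the keto-sterol reductase of the demethylation complex, was the exception. It read 81.5 units with OX40L-Tg APC and 75.4 units with Wt APC, and both of its probe sets above background gave 0.11.

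**Figure D3:**
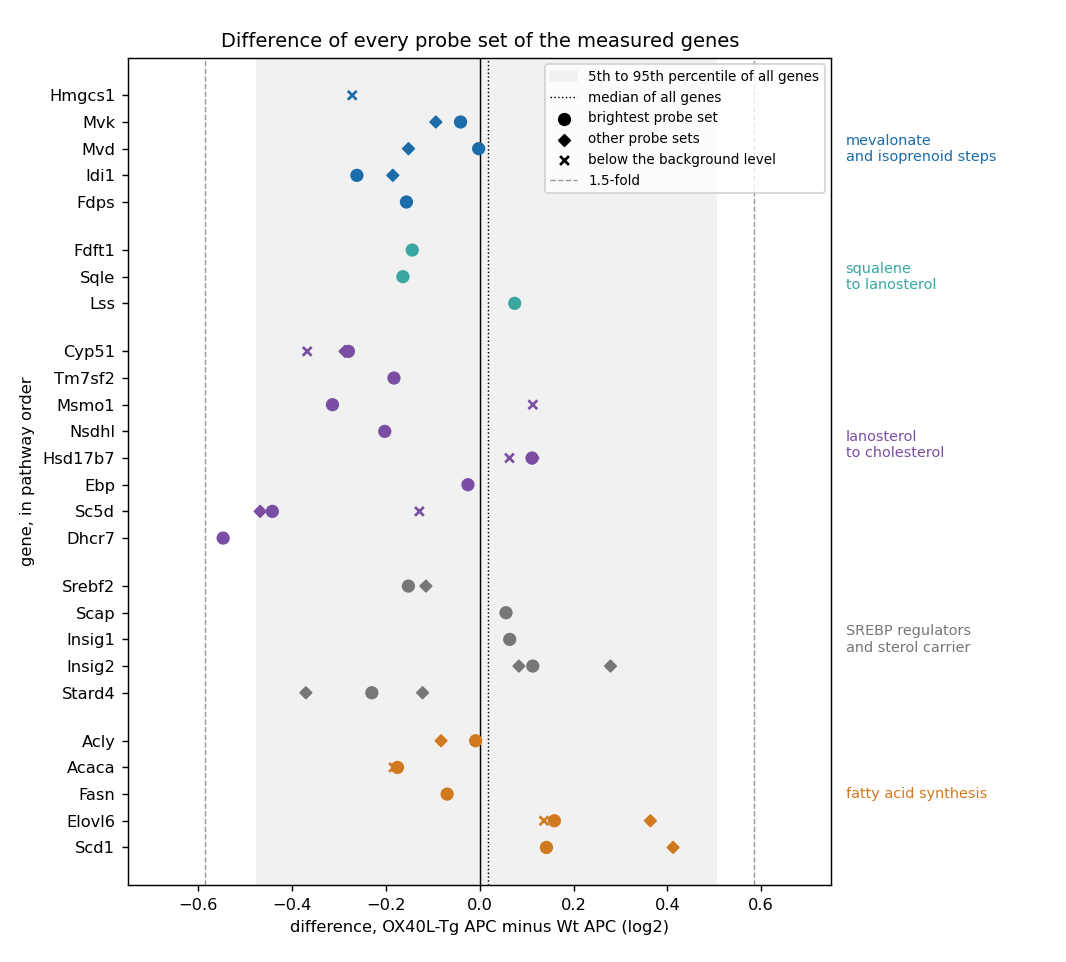
Difference between OX40L-Tg APC and Wt APC (log2, 1 array each) for all 46 probe sets of the 26 measured genes, with circles for the brightest probe set, diamonds for others, crosses for probe sets below the background level, a grey band for the 5th to 95th percentile of all genes, dashed lines at 1.5-fold and a dotted line at the median of all genes. Of the 39 probe sets above background, 27 lie left of 0 and 12 right of it, and no gene has such probe sets on both sides. The share over all probe sets was not counted. A gene with several probe sets counts more than once, so these counts add nothing to those of the genes.

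Among the 5 measured regulators and carriers, 2 read lower and 3 higher, with a median of 0.06. Srebf2, which encodes SREBP-2, read 550.5 units with OX40L-Tg APC and 612 units with Wt APC, a difference of -0.15, and its second probe set gave -0.11. Scap, the escort that carries SREBP to the Golgi, read 495 units with OX40L-Tg APC and 476 units with Wt APC, a difference of 0.06. Insig1, the retention protein that is itself a known SREBP target, read 415 units with OX40L-Tg APC and 397 units with Wt APC, a difference of 0.06. The differences of Scap and Insig1 were both smaller than the median gap between probe sets, and each rests on 1 probe set. Insig2, the second retention protein, read 324 units with OX40L-Tg APC and 299.5 units with Wt APC, a difference of 0.11. Its other probe sets gave 0.08 and 0.28, all above 0. Stard4, a soluble carrier of cholesterol and a known SREBP target, read 651 units with OX40L-Tg APC and 763 units with Wt APC, a difference of -0.23. Its 3 probe sets, all above background, lay between -0.37 and -0.12, so that Stard4 read lower on each.

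Of the 5 measured enzymes of fatty acid synthesis, 3 read lower or almost level and 2 higher. Acly, which makes cytosolic acetyl-CoA from citrate, read 2534 units with OX40L-Tg APC and 2549 units with Wt APC, a difference of -0.01. Acaca, the acetyl-CoA carboxylase that commits carbon to fatty acids, read 205 units with OX40L-Tg APC and 231 units with Wt APC, a difference of -0.18. Fasn, the fatty acid synthase, read 1216.6 units with OX40L-Tg APC and 1276.5 units with Wt APC, a difference of -0.07. The 2 enzymes that modify the finished palmitate read higher instead. Elovl6, which elongates it, read 500.3 units with OX40L-Tg APC and 448 units with Wt APC, a difference of 0.16, and its second probe set read 271 units with OX40L-Tg APC and 210.4 units with Wt APC, a difference of 0.36. Scd1, which desaturates the product, read 636 units with OX40L-Tg APC and 576 units with Wt APC, a difference of 0.14. Its dimmer probe set read 87.0 units with OX40L-Tg APC and 65.4 units with Wt APC, a difference of 0.41. In Elovl6 and Scd1 the sign was the same on both probe sets above background, but the size differed by more than the median gap, so that the size depends on the probe set.

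For 12 measured genes at least 2 probe sets were above background, and in all 12 these had the same sign. The share of all genes with such agreement was not counted, and probe sets of a gene read the same 2 RNA samples. The agreement therefore does not set these genes apart. Of the 25 genes above background on both arrays, 18 read lower with OX40L-Tg APC, beside 44.1% of 7904 genes that passed the same limit. The median gap between probe sets was exceeded downwards by 13 of the 25 and upwards by 2, beside 22.2% downwards and 29.7% upwards of the same 7904 genes. Genes are not independent replicates, and all of them share the same 2 arrays.

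**Figure D4:**
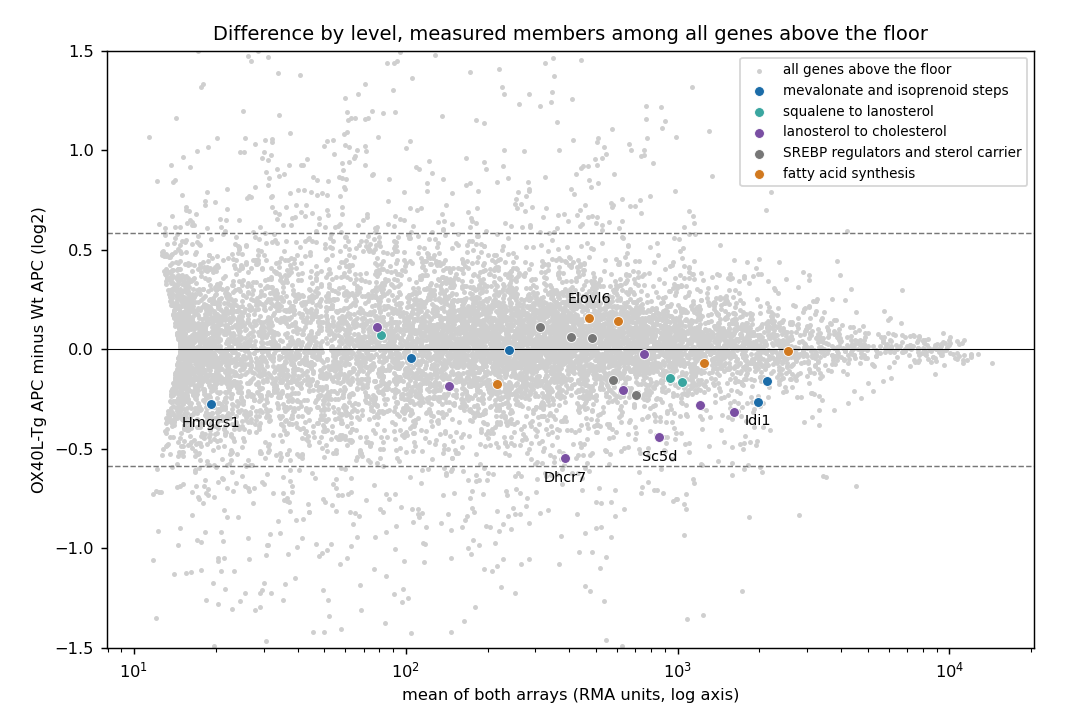
Difference between OX40L-Tg APC and Wt APC (log2) against the mean intensity of both arrays (RMA units, log axis) for all 10541 genes above the floor (grey, 117 of them outside the axis at 1.5) and for the 26 measured genes coloured by role. All coloured points lie between the dashed lines at 1.5-fold, and Dhcr7 at -0.55 is the lowest of them.

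The neighbouring pathways did not share one direction. The counts of each list stand beside 46.0% lower and 54.0% higher over all genes above the floor. Among 13 other genes of sterol synthesis, uptake and SREBP processing, 3 read lower and 10 higher, with a median of 0.05. Erlin1, an endoplasmic reticulum protein that binds sterol and restrains SREBP, read 232 units with OX40L-Tg APC and 119 units with Wt APC, 1.95-fold higher. Lipa, the lysosomal lipase that frees cholesterol from lipoprotein esters, read 150.3 units with OX40L-Tg APC and 279 units with Wt APC, 1.86-fold lower, on a probe set marked as shared between transcripts. These 2 genes on either side of the pathway differed by more than any of the 26. Nfyb, a subunit of NF-Y, differed by 0.24 with 0.30 in its other probe set, and Mbtps2, the site-2 protease of SREBP, by 0.19 with -0.02 in its other probe set.

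Genes that use prenyl groups, which branch off from the mevalonate pathway, read higher in 8 of 11, with a median of 0.20. Over all genes above the floor 54.0% read higher. Rabggta and Rabggtb, both subunits of the enzyme that prenylates Rab proteins, differed by 0.37 and 0.25. Icmt, which methylates prenylated proteins, differed by 0.31, and Pdss2, which builds the ubiquinone side chain, by 0.26. Among 7 genes above the floor of the sterol-sensing LXR receptors, efflux and esterification, 4 read lower and 3 higher, with a median of -0.10. Rxra, a partner of LXR, read 67.2 units with OX40L-Tg APC and 39.2 units with Wt APC, 1.71-fold higher, with 0.38 in its other probe set above background. Abcg1, a cholesterol exporter and known LXR target, read 62.6 units with OX40L-Tg APC and 87.5 units with Wt APC, a difference of -0.48. Mylip, a ubiquitin ligase and another LXR target, read 40.7 units with OX40L-Tg APC, below background, and 56.1 units with Wt APC. Lpcat3, which remodels phospholipids, differed by 0.25.

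Among 28 other genes of fatty acid and lipid synthesis above the floor, 10 read lower and 18 higher, with a median of 0.06. Hacd1, a dehydratase of fatty acid elongation, read 537 units with OX40L-Tg APC and 307 units with Wt APC, 1.75-fold higher, on a probe set with that same mark. Dgat1, which completes triglycerides, read 218 units with OX40L-Tg APC and 138 units with Wt APC, 1.58-fold higher, also on a set so marked. Lpin2, a phosphatidate phosphatase, differed by -0.50, and Acacb, the mitochondrial carboxylase, was below background on both arrays at 17.6 units with OX40L-Tg APC and 11.4 units with Wt APC.

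Genes of fatty acid oxidation stood level, with 9 of 17 lower, 8 higher and a median of -0.01. Cpt1a, which admits fatty acids to mitochondria, read 196.9 units with OX40L-Tg APC and 267.5 units with Wt APC, 1.36-fold lower. Cpt2, its partner on the inner membrane, differed by 0.24, Eci1, an isomerase of oxidation, by 0.22, and Acaa2, a thiolase, by -0.20. The lists of neighbouring genes were set up with earlier results known, and whether they differ from the sterol enzymes was not tested, since 1 array a group allows none.

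**Figure D5:**
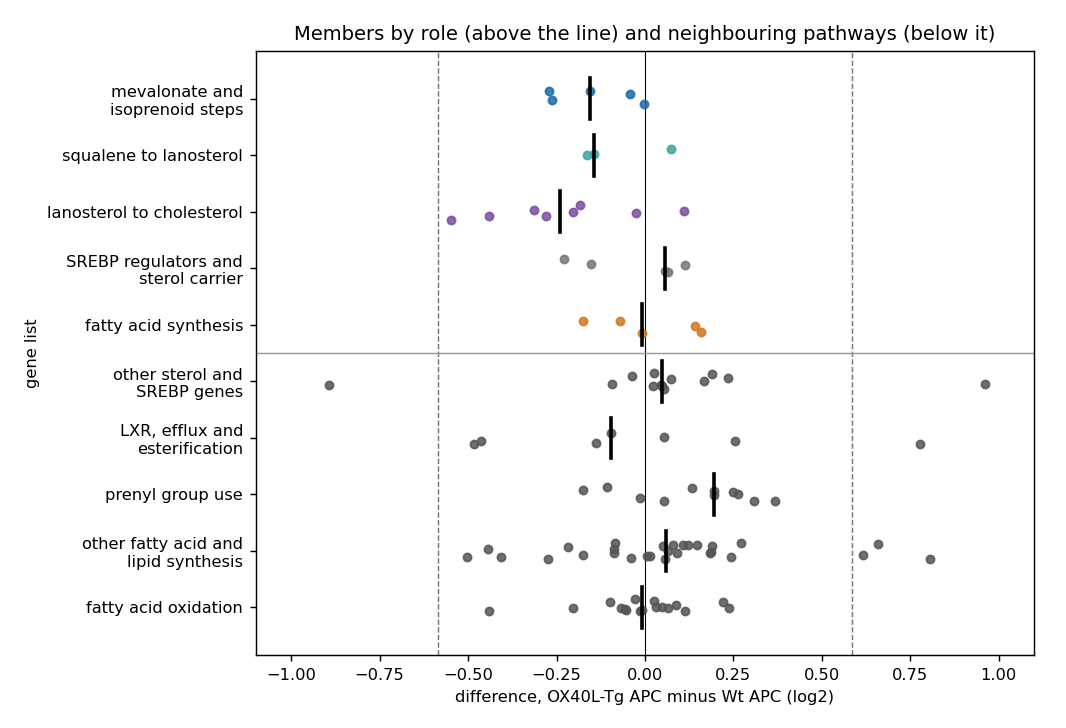
Difference between OX40L-Tg APC and Wt APC (log2) of each gene above the floor, for the 5 role groups of the members (above the line) and for 5 neighbouring pathways (below it), with black bars at the medians and dashed lines at 1.5-fold. The bar of the late sterol enzymes stands at -0.24 and that of fatty acid synthesis at -0.01, while Lipa at -0.89 and Erlin1 at 0.96 lie farthest out.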

How the data were processed

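T cell RNA was hybridised to 2 Affymetrix arrays (HT_MG-430 PM), 1 for each kind of APC. The authors deposited a linear intensity for each probe set, and the submitters' processing notes name RMA. That method subtracts background, equalises arrays and summarises probes. Its version and the arrays normalized together are not given in the sources used here. Intensities ran from 4.69 to 14686 with medians of 14.7 units on both arrays, and log2 was taken here. Equalising removes any change in total RNA per cell.

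Of 45141 probe sets, 28898 had 1 gene symbol in the platform annotation, 551 had several and named no gene, while 15692 had no entry there and stay unnamed. RefSeq (GRCm38.p6) held the Entrez number of 28689 of the 28898 and changed 0 symbols. The named genes were all 30 members, up to 4 genes per neighbouring list with the largest difference above the floor, and a few others whatever their values, of which Abcg1 and Cpt1a had a value and the rest are not reported here. Members, lists and rules were chosen with earlier results of these data known. Promoter sequences are RefSeq's. Calculations used Python 3.11.15, numpy 2.4.6, pandas 2.3.3, scipy 1.17.1, statsmodels 0.14.6 (lowess, span 0.3) and matplotlib 3.10.9, and were tested on simulated data. Alternatives changed the probe set, the floor (75th percentile, none), the background limit, the scaling and an added constant of 16 units.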

Additional observations from a re-analysis of the deposited data

How the results depend on the processing

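All 26 measured genes kept the sign of their difference under every one of 11 alternatives in which they had a value, 1 of which (background limit on both arrays) was chosen after seeing the data. Of 279 recomputed differences, 273 moved by less than 0.12, the pooled SD between probe sets of a gene. The other 6 moved by more, for Mvd, Sc5d, Insig2 and Scd1, all through the choice of probe set. Many of the 279 could not move. A changed floor or background limit leaves a gene's difference as it was, and a gene with 1 probe set has no other to choose. The kept signs and the 273 are therefore weak evidence of stability. The dimmest probe set above the floor gave 0.28 for Insig2 and 0.41 for Scd1. For Sc5d it gave -0.13 but was below background on both arrays, while the 2 probe sets above background gave -0.44 and -0.47. The count of lower members stood between 17 of 22 and 19 of 26. No alternative brought a member to 1.5-fold. The median of the sterol enzymes lay between -0.21 and -0.16. With the floor at the 75th percentile, 3 of 3 mevalonate and isoprenoid genes were left and read lower, since fewer genes were tested. The median of fatty acid synthesis lay between -0.07 and -0.01. No paired analysis was possible because there is 1 array per group, and replicates could not be left out. Signal near background limits Hmgcs1, and probe sets alone measure the scatter.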
